A study of Mus musculus with 6 samples.

Results

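The genes described here encode the nuclear-encoded subunits of the mitochondrial respiratory chain and of ATP synthase. They were taken from the deposited table by gene symbol, with 1 pattern for each of complexes I to V, and 75 of 23930 amplicons matched. Of these, 33 belonged to complex I, 4 to complex II, 9 to complex III, 16 to complex IV and 13 to complex V. Expression had been profiled in shafts of the humerus, the long bone of the upper forelimb, from mice at E16.5 (days of embryonic development), with 3 samples in each of 2 groups. The controls carried the genotype Stat3C/+ without a driver, although the labels also call them wild type, and the knockouts were Prrx1Cre; Stat3C/C. Both groups therefore carried at least 1 C allele of Stat3, the gene of a transcription factor downstream of cytokine receptors. Prrx1Cre is active in limb bud mesenchyme, which gives rise to cartilage, bone and connective tissue of the limb but not to its muscle fibres, blood cells or vessel lining. Its design compares gene expression of long bone between the 2 genotypes.

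The respiratory chain sits in the inner mitochondrial membrane. Complexes I and II pass electrons from NADH and succinate to ubiquinone, complex III passes them on to cytochrome c, and complex IV hands them to oxygen. Proton pumping by complexes I, III and IV drives complex V, the ATP synthase. Each complex needs its subunits together, and most subunits are encoded in the nucleus. A fraction of STAT3 protein has been placed in mitochondria, and Ndufa13, a subunit of complex I also known as GRIM-19, is known to bind STAT3.

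Libraries held 9126493 to 13376550 reads, and each gene was read at 1 short amplicon. Values are in RPM, reads per 1000000 reads of the library, so that 1 read was worth 0.0748 to 0.110 RPM. An amplicon's RPM depends on its own amplification as well as on the transcript, so levels are compared between samples and not between genes. The Stat3 amplicon gave 211, 201 and 211 RPM in controls against 208, 201 and 170.1 RPM in knockouts, with overlapping groups (limma adjusted p = 0.380). The sources used here do not place it inside or outside the deletion, so it does not check the labels. Among markers of the tissue, the 7 osteoblast genes measured summed to between 46546 and 50448 RPM in controls but between 40739 and 45207 RPM in knockouts. The gene read most had a mean of 28190 RPM, so 1 amplicon weighs heavily in this sum. Of the 7 genes 5 were lower (limma, adjusted p under 0.05), against 11.0% of all amplicons tested.

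With the deposited scaling some respiratory chain subunits were higher and others lower in knockout bone, within complexes I, III, IV and V. This mixture depended on the scaling. With TMM, median-of-ratios, edgeR and DESeq2 no subunit of complexes III and IV was lower. Complex V kept both directions under each. Of the 75 members 72 reached a mean of 1 RPM and were tested, 10 were higher, 9 were lower and 53 did not pass (limma, adjusted p under 0.05 over all 12846 amplicons tested). All 19 changes were small. The greatest rise was 1.43-fold at Ndufb9 and the greatest fall was 1.36-fold at Atp5o. The groups did not overlap for 30 of the 72 (41.7%, against 33.8% of all amplicons tested). The called share was 26.4% of the members, against 16.7% of all amplicons tested. By direction, 13.9% of members were higher against a background of 5.71%, and 12.5% were lower against 11.0%. The members were read deeply, however, and 57 of them had a mean of at least 100 RPM. Among those 57, 17 (29.8%) were called, near the 27.1% of all 1816 amplicons at that level. By direction 10 of the 57 (17.5%) were higher, against 13.7% of amplicons at this level, and 7 (12.3%) were lower, against 13.4%.

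The median log2 fold change of the members was 0.01, beside -0.06 for all amplicons tested. Their middle 50% lay between -0.12 and 0.16, and that of all amplicons between -0.23 and 0.10. All members together took 25056, 26201 and 26142 RPM in controls, against 26545, 26568 and 27007 RPM in knockouts. The knockout libraries were all above the controls in this sum, which is 2.58% of reads in controls and 2.67% in knockouts. Amplicons with high readings weigh most in it, such as Atp5j2, which averaged 1128 RPM in controls and 1544 RPM in knockouts. By count 10 members were higher and 9 lower, so the sum does not show a rise across the members.

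**Figure D1:**
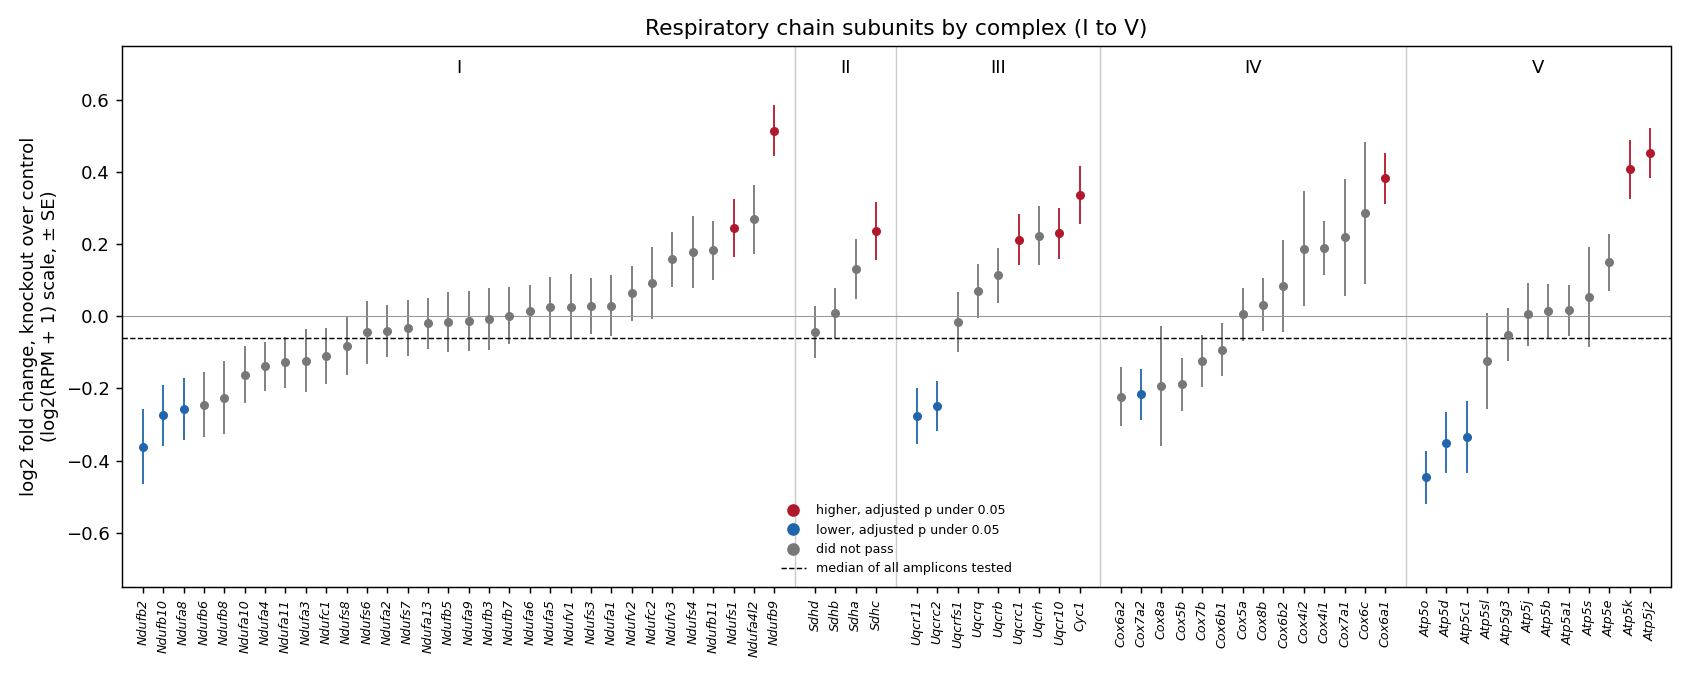
Log2 fold change (knockout over control, on the log2(RPM + 1) scale) of 71 of the 72 subunits tested, ordered within complexes I to V, with SE as bars. Red and blue points are 9 of the 10 higher and all 9 lower subunits, grey points did not pass, and the dashed line is the median of all amplicons tested, -0.06; complexes I, III, IV and V each hold red and blue points.

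The balance of the directions moved with the scaling of the libraries. With TMM factors, which assume that most genes do not change, 13 members were higher and 3 lower, so that 81.3% of the calls were higher in place of 52.6%. Of all amplicons tested 8.11% were then higher and 7.22% lower. Shares at a mean of at least 100 RPM were taken with the deposited scaling only. Higher calls over all amplicons also grew, from 733 of 2142 calls with the deposited scaling to 1042 of 1970 with TMM. Median-of-ratios factors gave the same counts of members (8.29% and 6.97% of all amplicons), and quantile normalization gave 8 higher and 7 lower (7.62% and 6.83%). edgeR on the recovered reads called 13 higher and 4 lower (8.19% and 7.18%), and DESeq2 called 14 and 2 (7.92% and 6.15%). In all, 7 members were called the same way in all 16 alternatives, 6 of them higher (among them Ndufb9, Cyc1, Cox6a1, Atp5j2 and Atp5k) and 1 lower (Atp5o). Atp5d was called in 15 and lost only without control replicate 2. Uqcr10 was called under all 5 alternatives of scaling or count model. The other 12 of the 19, Atp5d and Uqcr10 among them, lost their call when at least 1 of the libraries was left out. Without control replicate 1 there were 8 higher and 3 lower members. Leaving out control replicate 2 left 6 and 2, leaving out knockout replicate 2 left 6 and 4, and leaving out knockout replicate 3 left 7 and 4.

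Complex I takes electrons from NADH through a peripheral arm of iron-sulfur proteins and pumps protons in a membrane arm. Of the 33 genes counted here by symbol, 3 were higher, 3 lower and 27 did not pass, with a median log2 fold change of -0.01. The called share was 18.2%, against 16.7% of all amplicons tested. With TMM factors the counts were 4 and 1 and the median was 0.04, and DESeq2 called none lower. The higher subunits included Ndufb9, an accessory protein of the membrane arm, and Ndufs1, a core protein of the peripheral arm. Ndufb9 (chromosome 15, 58933756 to 58939488, GRCm38) was read at 269, 276 and 272 RPM in controls and at 375, 391 and 404 RPM in knockouts. Every knockout library lay well above the tight controls. The means were 272 ± 3.72 and 389.9 ± 14.4 RPM (SD, n = 3 each). On the log2 scale this was a rise of 0.52 ± 0.07 (SE, limma adjusted p = 3.94e-05).

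Ndufs1, the largest iron-sulfur protein of the complex, stood at 329, 345 and 365 RPM in controls and at 380.4, 392 and 464 RPM in knockouts. Its groups did not overlap, though the highest control and the lowest knockout were close. Its log2 fold change of 0.25 ± 0.08 passed with an adjusted p of 0.0397 in limma and was lost with quantile normalization (0.0527) and without several single libraries.

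The lower subunits of complex I were the membrane arm proteins Ndufb2 and Ndufb10 and Ndufa8, an accessory protein on the intermembrane side. Ndufb2 was read at 51.2, 44.0 and 54.1 RPM in controls and at 39.6, 39.8 and 35.9 RPM in knockouts (log2 fold change -0.36 ± 0.10, limma adjusted p = 0.0192). Ndufb10 went from 162 ± 12.6 to 134 ± 10.8 RPM (adjusted p = 0.0304) and Ndufa8 from 96.1 ± 5.16 to 80.2 ± 3.09 RPM (adjusted p = 0.0420, SD, n = 3 each). For these 3 genes the groups did not overlap. With TMM factors Ndufb2 kept a limma adjusted p of 0.0461, while Ndufb10 (0.0839) and Ndufa8 (0.114) did not pass.

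Most of the 33 genes counted under complex I did not pass the test. Ndufa13, the STAT3-binding subunit, was at 336, 330.1 and 316 RPM in controls and at 322, 327 and 320.1 RPM in knockouts. The groups overlapped, and the log2 fold change was -0.02 with a 95% interval from -0.17 to 0.13. Ndufb11 and Ndufa4 were read most among the complex I symbols. Ndufb11 was at 729 ± 89.4 and 825 ± 49.2 RPM (limma adjusted p = 0.125). Ndufa4, whose protein has since been assigned to complex IV, was at 744 ± 27.9 and 675 ± 18.0 RPM (SD, n = 3 each, limma adjusted p = 0.172), with every knockout below every control. Ndufa4l2 was at 60.5 ± 4.96 and 73.1 ± 6.25 RPM (SD, n = 3 each), with every knockout above every control. Its log2 fold change of 0.27 did not pass (limma adjusted p = 0.0580). It passed with TMM factors (0.0267), median-of-ratios factors, quantile normalization, edgeR and DESeq2. Over the 33 genes the groups did not overlap for 13, 5 above and 8 below the controls, where 11.9% of all amplicons tested lay above and 21.9% below.

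Complex II, succinate dehydrogenase, is also an enzyme of the citric acid cycle and has only nuclear-encoded subunits. Of its 4 members, all with a mean of at least 100 RPM, 1 was higher and 3 did not pass. At that level 13.7% of amplicons were higher. Sdhc, a membrane anchor that carries heme, stood at 266, 221 and 263 RPM in controls and at 292, 284 and 305 RPM in knockouts. Control replicate 2 was the lowest library, and the groups did not overlap. The log2 fold change was 0.24 ± 0.08 (limma adjusted p = 0.0476), and it was not called without control replicate 2, without any 1 of the 3 knockout libraries, with quantile normalization, or with no filter on low values. Sdha, the flavoprotein that oxidizes succinate, was at 189 ± 9.29 and 208 ± 20.998 RPM. Sdhb, the iron-sulfur subunit, was at 405 ± 12.8 and 407 ± 5.56 RPM, and Sdhd, the other anchor, at 406 ± 15.0 and 395 ± 23.1 RPM (SD, n = 3 each). The limma adjusted p of these 3 was 0.297, 0.945 and 0.732.

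Complex III, the cytochrome bc1 complex, had 3 higher and 2 lower subunits among 9, and 4 did not pass. The called share was 55.6%, against 16.7% of all amplicons tested. All 9 had a mean of at least 100 RPM, a level where 27.1% of amplicons were called. The median log2 fold change of the complex was 0.11. With TMM factors 4 were higher, none was lower and the median was 0.17. Cyc1, the cytochrome that delivers electrons to cytochrome c (chromosome 15, 76343523 to 76346260), was at 304, 332 and 302 RPM in controls and at 443, 378 and 368 RPM in knockouts. Every knockout was above every control, and knockout replicate 1 was the highest. The log2 fold change was 0.34 ± 0.08 (SE, limma adjusted p = 0.00621).

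The paired core proteins of complex III moved in opposite directions with the deposited scaling. Uqcrc1 was at 361, 339 and 347 RPM in controls and at 399, 413 and 401 RPM in knockouts (log2 fold change 0.21 ± 0.07, limma adjusted p = 0.0416). Uqcrc2 was at 587, 605 and 558 RPM in controls and at 499, 483 and 491 RPM in knockouts (-0.25 ± 0.07, limma adjusted p = 0.0172). In both genes the groups stood apart, in opposite orders. The fall of Uqcrc2 did not pass with TMM factors (limma adjusted p = 0.0690), and the rise of Uqcrc1 did not pass with quantile normalization (0.0565) or without any 1 of the 6 libraries, among other settings.

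Small subunits of the same complex divided in the same manner. Uqcr10 went from 572 ± 32.5 to 671 ± 19.6 RPM (log2 fold change 0.23, limma adjusted p = 0.0284). Uqcr11 went from 427 ± 36.4 to 352 ± 14.2 RPM (-0.28, adjusted p = 0.0164, SD, n = 3 each), and this fall did not pass with TMM factors (0.0643). Uqcrh, the hinge protein that contacts cytochrome c, was the member of this complex with the highest reading, at 822 ± 81.6 and 959 ± 88.6 RPM, with overlapping groups (limma adjusted p = 0.0629). It passed with TMM factors (0.0306). Uqcrfs1, the Rieske iron-sulfur protein, was at 207 ± 19.5 and 204 ± 11.5 RPM, and its log2 fold change of -0.02 had a 95% interval from -0.19 to 0.16.

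Complex IV, cytochrome c oxidase, had 1 higher and 1 lower subunit among 14 tested, and 12 did not pass. The called share was 14.3%, against 16.7% of all amplicons tested. The median log2 fold change was 0.02. With TMM factors 2 were higher, none was lower and the median was 0.075. Cox6a1, the widely expressed form of a regulatory subunit (chromosome 5, 115345642 to 115348981), was at 848, 818 and 933 RPM in controls and at 1168, 1082 and 1135 RPM in knockouts. The knockouts stood clear of the controls, with a log2 fold change of 0.38 ± 0.07 (SE, limma adjusted p = 9.12e-04). Cox7a2, also the widely expressed form of its subunit, was at 771, 830.4 and 780.4 RPM in controls and at 675, 717 and 657 RPM in knockouts. Its log2 fold change of -0.22 ± 0.07 passed with an adjusted p of 0.0363 in limma but not with TMM factors (0.139). Cox4i1, which binds ATP at the matrix side, passed as higher only in some settings, among them TMM factors (limma adjusted p = 0.0335, against 0.0832 with the deposited scaling). Cox7b2 and Cox8c, known from testis, had at most 3 reads in any library and were not tested. The widely expressed genes Cox6c and Cox8a were read at a mean of 3.79 and 5.51 RPM only, and neither passed.

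**Figure D2:**
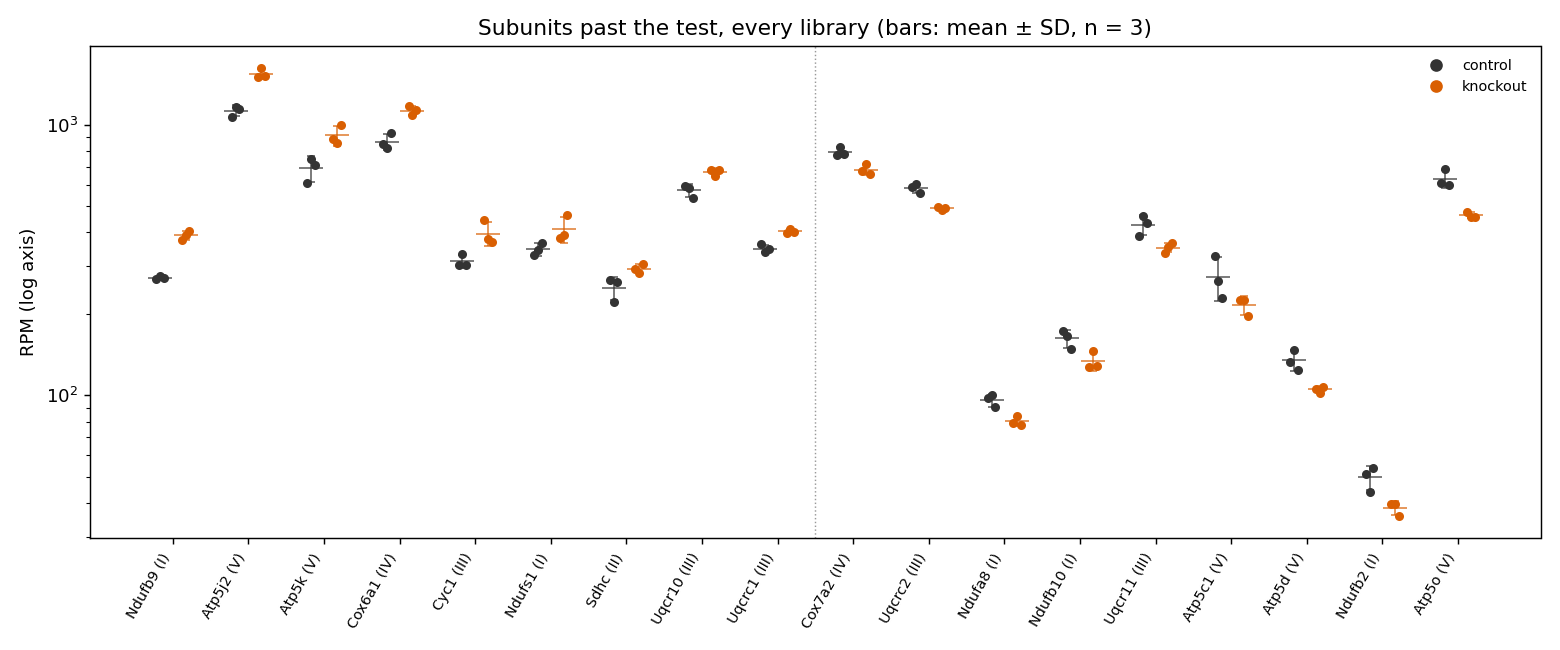
RPM (log axis) of 9 of the 10 higher (left of the dotted line) and all 9 lower subunits in every library, with the complex in parentheses and mean ± SD as bars (n = 3 a group). In each of the 18 genes drawn the knockout points lie wholly above or wholly below the control points.

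Several subunits of complex IV exist in a form of heart and skeletal muscle beside the widely expressed one, and humerus shafts carried muscle RNA. Cox6a2, the muscle partner of Cox6a1, was at 284, 249 and 270.3 RPM in controls and at 244, 236 and 209 RPM in knockouts. All knockouts were below all controls, and the log2 fold change of -0.22 did not pass (limma adjusted p = 0.0618, and 0.0497 with quantile normalization). The muscle form Cox8b was at 238, 244 and 256 RPM in controls and at 253, 255 and 247 RPM in knockouts, with a log2 fold change of 0.03 and a 95% interval from -0.12 to 0.18. Cox7a1, the muscle partner of Cox7a2, was at 7.70 ± 0.835 and 9.22 ± 1.82 RPM (SD, n = 3 each) and overlapped between groups.

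The difference of log2(RPM + 1) between 2 subunits was taken within each library, where scaling bears on it only through the pseudocount, which matters most for genes read at a few RPM. For Cox6a2 less Cox6a1 it was -1.57, -1.71 and -1.78 in controls and -2.25, -2.19 and -2.44 in knockouts, a shift of -0.60. For Ndufa4l2, a relative of Ndufa4 known to be induced by low oxygen, less Ndufa4 it shifted by 0.41, from -3.60 ± 0.162 to -3.19 ± 0.155 (SD, n = 3 each). In these 2 pairs the groups did not overlap. By exact permutation (two-sided) both had p = 0.1, the smallest p that 3 against 3 can give, and an adjusted p of 0.25 over the 5 pairs compared. The shift was 0.44 for Cox7a1 less Cox7a2, 0.23 for Cox8b less Cox8a (exact permutation p = 0.2 each, adjusted 0.25) and -0.002 for Cox4i2, a form known from lung, less Cox4i1 (exact permutation p = 1). With a pseudocount of 10 RPM the shift of Cox8b less Cox8a, whose second gene is read at a few RPM, was 0.11.

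Markers of skeletal muscle were counted beside these values. Of 14 muscle genes measured none was higher, 7 (50%) were lower and 7 did not pass. Of all amplicons tested 11.0% were lower, and 13.4% of those with a mean of at least 100 RPM, where 13 of the 14 lay. The median log2 fold change of the 14 was -0.21, and the range was -0.56 to 0.07. Their sum was 33994 to 37314 RPM in controls and 30412 to 32738 RPM in knockouts, and no gene of the list was at 0. Titin (Ttn) was at 859 ± 55.0 and 584 ± 67.9 RPM and Actn2 at 784 ± 19.9 and 582 ± 11.1 RPM (SD, n = 3 each), log2 fold changes of -0.56 and -0.43 (limma adjusted p = 6.77e-05 and 1.61e-04). With TMM factors 5 of the 14 were lower, against 7.22% of all amplicons tested. In bulk tissue fewer cells of a type and less RNA per cell cannot be told apart, and the part of muscle in the values of Cox6a2 and the other subunits was not tested.

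**Figure D3:**
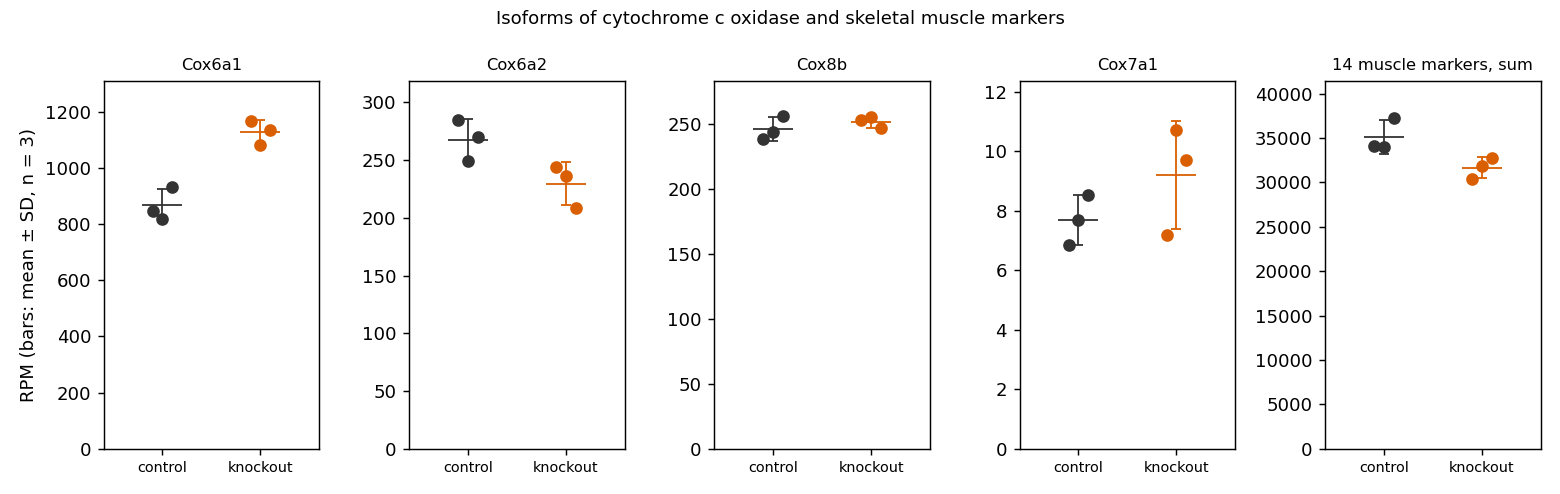
RPM in every library (mean ± SD as bars, n = 3) of Cox6a1, of the muscle forms Cox6a2, Cox8b and Cox7a1, and of the sum over 14 skeletal muscle markers, each on its own linear axis from 0. Cox6a2 and the muscle sum were lower in all 3 knockouts, Cox6a1 was higher, and Cox8b and Cox7a1 overlapped between groups.

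Complex V makes ATP in a catalytic head that is held by a peripheral stalk and driven by a rotating central stalk. Among 12 subunits tested 2 were higher, 3 lower and 7 did not pass, with a median log2 fold change of 0.01. Here both directions held under every scaling: 2 were higher under each, and 2 or 3 were lower. The higher subunits were Atp5j2 and Atp5k, small membrane proteins of the peripheral part. Atp5j2 (chromosome 5, 145183698 to 145192062) was at 1071, 1166 and 1147 RPM in controls and at 1499.6, 1616 and 1516 RPM in knockouts. Its log2 fold change was 0.45 ± 0.07 (SE, limma adjusted p = 1.08e-04). Atp5k (chromosome 5, 108433244 to 108434448) was at 608, 749 and 713 RPM in controls and at 889, 853 and 999.995 RPM in knockouts, a log2 fold change of 0.41 ± 0.08 (adjusted p = 0.00168 in limma). In both genes the knockouts stood above the controls.

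The 3 lower subunits of complex V were Atp5o, Atp5d and Atp5c1, while Atp5e of the central stalk and Atp5j of the peripheral stalk did not pass (log2 fold changes of 0.15 and 0.01). Atp5o, the oligomycin sensitivity protein that joins the peripheral stalk to the head, was at 609, 688 and 599 RPM in controls and at 477, 456 and 456 RPM in knockouts. The groups were far apart, with a log2 fold change of -0.45 ± 0.07 (SE, limma adjusted p = 2.31e-04). The annotation holds 2 overlapping genes under this symbol, so the reads may come from either. Atp5d, of the central stalk, was at 133, 148 and 124 RPM in controls and at 106, 102 and 108 RPM in knockouts (-0.35 ± 0.08, limma adjusted p = 0.00682). Atp5c1, the rotor shaft of the central stalk, was at 329, 265 and 229.7 RPM in controls and at 225, 226 and 196 RPM in knockouts. Here control replicate 3 and knockout replicate 2 nearly met, and the fall (-0.33 ± 0.10, limma adjusted p = 0.0244) did not pass with TMM factors (0.0530). Atp5a1 and Atp5b, of the catalytic head, and the ring subunit Atp5g3 did not pass. Atp5a1 was at 1274 ± 61.3 and 1290 ± 78.4 RPM, Atp5b at 1264 ± 96.5 and 1275 ± 87.6 RPM, and Atp5g3, the member with the highest reading, at 1621 ± 125 and 1564 ± 89.6 RPM (SD, n = 3 each). Atp5sl was counted here by its symbol, but the annotation names it Dmac2, an assembly gene of complex I, and it did not pass.

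**Figure D4:**
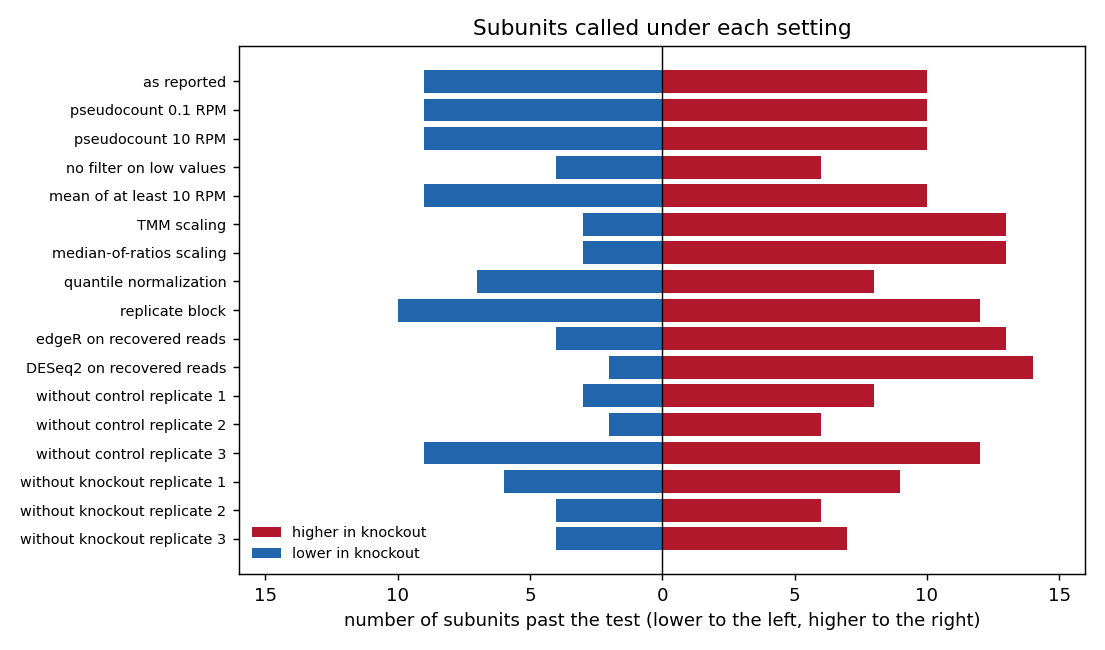
Number of subunits called higher (red, to the right) and lower (blue, to the left) in knockout bone as reported and under each of the 16 alternatives. Lower calls range from 2 to 10 and higher calls from 6 to 14; TMM, median-of-ratios, edgeR and DESeq2 give fewer lower and more higher calls than the deposited scaling.

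Nuclear respiratory factor 1, encoded by Nrf1, is a known activator of respiratory chain genes, and STAT proteins bind short palindromic sites. Both motifs were sought on both strands of RefSeq promoter windows (GRCm38.p6) of 300 bases, 250 before to 50 after a gene's start. Windows were matched for 57 of the 75 members. Among the 18 without one were Ndufb9, Ndufs1, Sdhc, Cyc1 and Uqcrc2. The full palindrome of 10 bases that Nrf1 binds, spelled in capitals in the sequences of Atp5k, Cox6a1 and Ndufa11, stood in windows of 4 members (7.02%), against 290 of 27025 genes (1.07%). These were Atp5k, Cox6a1 and Uqcrc1, which are 3 of the 5 higher members with a window, and Ndufa11, which is 1 of the 43 that did not pass. None of 8 lower members held it. The motif TTCNNNGAA, read the same on both strands, stood in 4 members (7.02%) and in 9.55% of all genes. Of the 4, Atp5o, Atp5d and Ndufa8 are 3 of the 8 lower members with a window, and Ndufb6 did not pass.

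Stretches of 100 bases around 1 match upstream of the RefSeq start are printed for 6 of these genes, 5′ to 3′ on the gene's strand, because they show the letters behind these counts. Capitals mark the match. The first 3 hold the Nrf1 motif, which begins 50, 162 and 60 bases before the start, and the other 3 hold TTCNNNGAA, 24, 75 and 78 bases before it. They lie at chr5:108434400-108434499, chr5:115349066-115349165, chr17:56717657-56717756, chr16:91931631-91931730, chr10:80142154-80142253 and chr2:36049363-36049462. The match of Uqcrc1 begins 30 bases after the start. The TTCNNNGAA stretches printed are all from lower members. Ndufb6, which did not pass, is not printed, and its matches begin 57 and 205 bases before the start.
Atp5k: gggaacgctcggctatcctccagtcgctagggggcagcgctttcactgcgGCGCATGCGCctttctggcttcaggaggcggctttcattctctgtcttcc
Cox6a1: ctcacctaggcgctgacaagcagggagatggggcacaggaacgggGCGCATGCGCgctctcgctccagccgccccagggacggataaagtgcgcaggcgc
Ndufa11: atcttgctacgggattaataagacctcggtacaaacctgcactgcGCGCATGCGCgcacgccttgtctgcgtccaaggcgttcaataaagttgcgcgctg
Atp5o: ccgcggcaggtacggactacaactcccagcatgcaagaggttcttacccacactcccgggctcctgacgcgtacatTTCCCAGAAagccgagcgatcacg
Atp5d: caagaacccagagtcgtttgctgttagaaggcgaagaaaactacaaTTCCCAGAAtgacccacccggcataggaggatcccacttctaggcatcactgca
Ndufa8: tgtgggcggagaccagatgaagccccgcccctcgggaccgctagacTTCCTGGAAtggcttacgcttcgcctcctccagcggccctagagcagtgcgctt

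A match of letters is a description and does not show binding. The other motifs sought, also on both strands, were CCGGAAGT, bound by ETS factors such as GABP, and the extended motif of YY1. The former stood in 4 members (7.02%), among them the lower Uqcr11, against 4.31% of all genes. The latter stood in 6 members (10.5%), none of them called, against 0.995% of all genes.

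None of 14 regulators of mitochondrial biogenesis tested was called in either direction by limma with the deposited scaling, against 16.7% of all amplicons tested. Their median log2 fold change was 0.03. At an unadjusted p under 0.05, 1 was higher and 3 lower, while edgeR and quantile normalization called 1 higher and DESeq2 none. With the replicate block, without control replicate 3 or without knockout replicate 1, 1 was called lower. With no filter on low values 1 of 15 was lower. Nrf1 itself was at 37.2 and 30.1 RPM (limma adjusted p = 0.0768), Tfam, which packages and transcribes mitochondrial DNA, at 46.1 and 39.1 RPM (0.115), and the coactivator gene Ppargc1a at 17.1 and 21.7 RPM (0.0977), each as group means.

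Assembly factors build the complexes but do not stay in them. Among 43 of them tested 2 were higher and 5 lower (16.3% called, against 16.7% of all amplicons tested), with a median log2 fold change of -0.11. With TMM factors 5 were higher and 4 lower. Without control replicate 3 there were 4 and 9, without control replicate 1 or control replicate 2 there were 1 and 3, and without knockout replicate 2 there were 1 and 4. Lyrm7, a chaperone that brings the Rieske protein to complex III, was at 14.6, 13.1 and 9.45 RPM in controls and at 4.74, 5.92 and 5.52 RPM in knockouts. All knockout libraries were below all controls, and the log2 fold change was -1.05 ± 0.17 (SE, limma adjusted p = 1.58e-04). It was called lower in all 15 alternatives that tested it, since its mean is under the stricter filter of 10 RPM, while its client gene Uqcrfs1 did not pass. The complex I factor Acad9 went from 37.7 ± 1.78 to 27.2 ± 0.774 RPM, the ATP synthase factor Tmem70 from 78.4 ± 6.64 to 60.5 ± 1.73 RPM, and the copper chaperone Cox11 of complex IV from 26.2 ± 2.05 to 18.7 ± 1.71 RPM. Ndufaf2 was lower as well (limma adjusted p = 0.0350), but not with TMM factors (0.0722). Ndufaf6 rose from 9.69 ± 0.890 to 14.1 ± 0.394 RPM and Pet100, a complex IV factor, from 80.7 ± 8.17 to 106.6 ± 13.6 RPM (SD, n = 3 each).

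The lists that follow stand beside 5.71% of all amplicons tested that were higher and 11.0% that were lower (8.11% and 7.22% with TMM factors). In ubiquinone synthesis 2 of 13 genes were higher and none lower. Coq10b, which binds ubiquinone, was at 23.6, 22.8 and 22.5 RPM in controls and at 35.2, 34.5 and 33.2 RPM in knockouts (log2 fold change 0.56 ± 0.11, limma adjusted p = 0.00102). The count for ubiquinone synthesis was 1 higher without control replicate 1, control replicate 3 or knockout replicate 2, and 1 higher and 1 lower without knockout replicate 3. Around the citric acid cycle 3 of 16 genes were higher and 3 lower (18.8% each), and 4 and 1 with TMM factors. All 16 had a mean of at least 100 RPM, a level where 13.7% of amplicons were higher and 13.4% lower. Leaving out 1 library gave 1 to 4 higher and 0 to 3 lower, with 1 and 0 without control replicate 2. Dlat, of the pyruvate dehydrogenase complex, rose from 138 ± 8.33 to 192 ± 4.47 RPM, while Fh1, fumarate hydratase, fell from 158 ± 9.49 to 125 ± 5.55 RPM. In glycolysis 2 of 12 genes were higher and 1 lower, and 1 and 1 without control replicate 1, control replicate 2, knockout replicate 2 or knockout replicate 3. Ldha, which makes lactate, went from 1669 ± 139 to 2109 ± 83.5 RPM and Pkm, pyruvate kinase, from 1164 ± 125 to 867 ± 69.99 RPM (SD, n = 3 each). Of 6 channels and carriers tested none passed in limma with the deposited scaling, 2 were higher and 1 lower at an unadjusted p under 0.05, and 2 were higher with TMM factors, edgeR and DESeq2. Mitochondrial ribosomal proteins, which translate the subunits encoded in mitochondrial DNA, had 8 higher and 11 lower genes among 69 and 13 and 8 with TMM factors. Leaving out 1 library gave 3 to 6 higher and 5 to 12 lower, with 4 and 5 without control replicate 1 and 3 and 7 without knockout replicate 2. Their median log2 fold change was -0.02, and Mrpl51, from 411 ± 30.2 to 599 ± 25.5 RPM (limma adjusted p = 3.51e-05), had the lowest adjusted p of the list. Subunits encoded in mitochondrial DNA were not analysed here.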

How the data were processed

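Per the labels' protocols, Trizol RNA was copied to cDNA (SuperScript VILO) and amplified with an Ion AmpliSeq panel for mouse transcripts, which reads 1 amplicon per gene. The authors deposited RPM values for 23930 amplicons, while the sources used here name no aligner, counter or build. Every value above 0 was a whole number of reads within 0.1 read (100%), so reads were recovered. A total of 27 symbols turned into dates were read back from amplicon names. Groups came from the titles, which do not say whether replicates were separate embryos, so the spread behind each p-value is one between samples and could be technical. Libraries of 1 group differed beyond counting noise (chi-square per degree of freedom 4.54 to 7.80).

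The 12846 amplicons whose mean reached 1 RPM were tested as log2(RPM + 1) with limma 3.58.1 (R 4.3.3, trended empirical Bayes, two-sided, Benjamini-Hochberg, threshold 0.05). Fold changes on this scale understate those of low genes. The script was tested on simulated data. Alternatives were other pseudocounts (0.1 and 10 RPM), no filter or one of 10 RPM, scaling by TMM, by median-of-ratios or by quantiles, a replicate block, leaving out each library, edgeR 4.0.16 and DESeq2 1.42.0. The count tests called 1974 and 1773 amplicons. The members, gene lists and naming rule (members past the threshold, the 2 with the highest mean per complex, Sdh subunits, Ndufa13, isoforms, and up to 4 called genes per list) were chosen with earlier results of these data known. Outside the rule, Uqcrfs1, Atp5a1, Atp5b, Atp5e, Atp5j, Atp5sl, Atp5c1-ps, Cox6c, Ndufa11, Ndufb6, Nrf1, Tfam, Ppargc1a and Ucp1 were named for their role or for a motif match, with their values already seen. The assembly factor lists of the 5 complexes were pooled for their count. Gene positions are from GENCODE M21 (GRCm38), matched by symbol for 74 members. Figures were drawn with matplotlib 3.10.9. Of the members 1 is counted throughout but not reported here by name.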

Additional observations from a re-analysis of the deposited data

How the results depend on the processing

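Of the calls among members, 10 higher and 9 lower became 6 and 4 with no filter on low values, and the cause was not tested. Lower calls were 3 with TMM and with median-of-ratios factors, 4 with edgeR and 2 with DESeq2. Over all amplicons, lower calls were 1409 as reported, 869 with no filter, 928 with TMM, 895 with median-of-ratios, 878 with quantile normalization, 922 with edgeR and 775 with DESeq2. Leaving out 1 library gave 6 to 12 higher and 2 to 9 lower members, and 444 to 705 higher and 729 to 1314 lower amplicons.

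With TMM, median-of-ratios, edgeR and DESeq2 the median log2 fold change was 0.043, 0.046, 0.046 and 0.053 in complex I (-0.01 as reported), 0.17, 0.17, 0.17 and 0.17 in complex III (0.11), and 0.066, 0.070, 0.068 and 0.075 in complex V (0.01). In complex IV it was 0.079 with median-of-ratios, 0.076 with edgeR and 0.082 with DESeq2 (0.02). Without single libraries the medians ran from -0.051 to 0.019 in complex I, 0.034 to 0.11 in complex II, 0.082 to 0.18 in complex III, -0.0052 to 0.053 in complex IV and -0.061 to 0.024 in complex V. The shift of Cox4i2 less Cox4i1 (-0.002) turned to 0.0098 with a pseudocount of 0.1 RPM and ran from -0.14 to 0.16 without single libraries. The other pairs kept their direction in the alternatives run.

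Same-numbered control and knockout samples showed little joint deviation (r of 0.01, -0.02 and 0.11), and differently numbered ones ran from -0.10 to 0.10. Such weak correlations, with 3 samples a group, cannot tell whether the numbers pair the samples. With the replicate block 12 members were higher and 10 lower. Over all amplicons it called 836 higher and 1626 lower, against 733 and 1409 as reported. For the isoform pairs the exact sign-flip test of the pairing gave the same shifts, and 3 pairs allow no p under 0.25. A subunit that did not pass may still differ: the 95% interval of the log2 fold change of Sdhb, for example, ran from -0.14 to 0.15.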

Other observations

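Markers of other cell types were counted in the same fit, as a description of the tissue beside the subunits. Of all amplicons tested 5.71% were higher and 11.0% lower. Osteoblast genes were lower in 5 of 7 and higher in 0, with Runx2, a master regulator of bone formation, at 77.1 ± 2.22 and 49.9 ± 4.29 RPM (limma adjusted p = 8.84e-05). Neutrophil genes were lower in 5 of 5. Chondrocyte genes were lower in 5 of 8, but in 3 with TMM factors and in 2 with median-of-ratios factors, quantile normalization and DESeq2. Without control replicate 2 or knockout replicate 2 the count was 2, and without control replicate 1, control replicate 3 or knockout replicate 1 it was 3. Macrophage and osteoclast genes were higher in 4 of 8 and lower in 1, with Cd68 at 89.7 ± 7.18 and 124.9 ± 2.52 RPM (SD, n = 3 each). With the filter of 10 RPM 2 of 6 were higher and 1 lower. Leaving out 1 library gave 3 or 4 higher and 0 or 1 lower. Of the erythroid genes 1 of 5 was higher, the heme synthesis gene Alas2 (limma adjusted p = 0.0493), and this call was lost with a pseudocount of 0.1 RPM, with no filter on low values and without any 1 library other than control replicate 1. Endothelial genes were lower in 2 of 5, and in 1 without control replicate 1, control replicate 2 or knockout replicate 1. With TMM factors, with edgeR or without knockout replicate 3, 1 endothelial gene was higher and 2 were lower. With median-of-ratios factors or DESeq2, 1 was higher and 1 lower. Brown fat genes were lower in 1 of 3, and in 0 without any 1 library other than knockout replicate 2 and with DESeq2. The brown fat uncoupling gene Ucp1 was under 1 RPM on average and was not tested. The part of these cell types in the values of the subunits was not tested.

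Of the 3 members under 1 RPM, Cox7b2 had 1 read in knockout replicate 3 and 0 in the other libraries. Cox8c had 1, 0 and 2 reads in controls and 1, 3 and 2 in knockouts, and the pseudogene Atp5c1-ps had 4, 1 and 1 reads in controls and 3, 2 and 0 in knockouts. Reads of this pseudogene were therefore too few, at its own amplicon, to show a difference between groups.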
